A study of Mus musculus with 6 samples.

Results

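A set of 8 genes that mark the nerve and pacemaker cells of the gut wall was followed through the RNA of sorted immune cells. They are Kit and Ano1 of the interstitial cells of Cajal (ICC), S100b, Sox10 and Gfap of enteric glia, and Elavl4, Uchl1 and Ret of enteric neurons. They were found by their gene symbols in the deposited table of normalized values, which lists 26110 genes, and all 8 were there. Of these, 7 averaged 10 or more over the libraries, as 17812 genes did, and were tested, while Ret, with a mean of 9.87, was not.

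The muscular coat of the gut, the muscularis externa (ME), holds the myenteric plexus, a mesh of neurons and glia between the muscle layers. ICC lie beside the plexus and set the slow electrical rhythm of the muscle, with the calcium-activated chloride channel ANO1 carrying the pacemaker current and the receptor tyrosine kinase KIT keeping the cells alive. Enteric neurons and glia both descend from neural crest cells that depend on SOX10 and on the receptor RET. Macrophages of the ME lie among these cells.

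The study sorted cells with a high surface level of MHC class II (MHCII hi) from the small bowel ME of untreated CX3CR1+/GFP mice, in which 1 copy of the fractalkine receptor gene is replaced by green fluorescent protein, and split them into CX3CR1- and CX3CR1+ cells by that fluorescence. Each group had 3 RNA-seq libraries, both groups came from the same genotype with no treatment or other allele, and the ages of the mice are not given in the sources used here. The labels call the cells dendritic cells and the study calls them macrophages. Tissue of 6 mice was pooled per group, and the sources used here do not say whether each library came from its own pool, so the p-values measure the spread between these libraries, which may be technical. The gates named for these libraries were MHC class II and CX3CR1.

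The sorted cells were checked first. Cx3cr1, the gene of the sorting marker, had normalized values of 23.2, 18.9 and 28.5 in the CX3CR1- libraries and 371, 380 and 347 in the CX3CR1+ libraries. Ptprc (CD45), which all white blood cells carry, read 3826, 4526 and 2860 against 4198, 3897 and 4579, so its ranges overlapped. The MHC class II gene H2-Ab1 was high throughout, at 21599.5, 26732 and 23596 in CX3CR1- and 36021, 38358 and 37395 in CX3CR1+, with every CX3CR1- library below every CX3CR1+ library (log2 fold change -0.64, limma adjusted p = 0.00360). H2-Aa, its partner chain, was called lower in CX3CR1- (-1.003), and Cd74, the invariant chain and the most abundant of the genes checked, was lower by less than the fold set for a call (-0.85). The macrophage genes Adgre1 (F4/80) and Csf1r were lower in the CX3CR1- libraries by 3.14 and 2.42 on the log2 scale (limma, adjusted p = 1.45e-06 and 4.38e-06). Itgam (CD11b) was not called (-0.15, limma adjusted p = 0.668), and its ranges overlapped. Of the 11 genes checked, 7 were called lower in CX3CR1- and none higher.

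The groups differed in their share of mitochondrial RNA, while their depths overlapped. The libraries held about 5350000 to 17600000 reads, estimated from the smallest step between low values. Mitochondrially encoded genes took 51.7% ± 3.76 (SD, n = 3) of the normalized values in CX3CR1- and 19.6% ± 1.55 (n = 3) in CX3CR1+, and their part in the differences below was not tested. CX3CR1- replicate 2 stood apart from its group for most of the genes described here. It was the shallowest of the 3 CX3CR1- libraries, with about 6520000 reads against 11900000 and 11300000. CX3CR1+ replicate 3 had fewer reads in total, about 5350000, but these totals include mitochondrial reads. Without mitochondrial reads, CX3CR1- replicate 2 was the shallowest of all libraries. The normalized value of 3 reads was also highest there, at 5.36, against 4.25 in CX3CR1+ replicate 3. Each fold change of the 7 tested genes is therefore also given without CX3CR1- replicate 2.

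Of the 7 tested genes, 4 were higher in CX3CR1- than in CX3CR1+ cells, and they were Kit and the 3 glial genes S100b, Sox10 and Gfap. None was lower. A gene was called when its absolute log2 fold change was at least 1 and its adjusted p at most 0.05 (limma on log2(value + 1), Benjamini-Hochberg adjustment over the 17812 genes). Of all genes tested, 12.2% were called higher and 8.15% lower. The 7 genes had a median log2 fold change of 2.22, beside -0.0035 over all genes tested. In the same 4 genes every CX3CR1- library lay above every CX3CR1+ library, as in 20.3% of the genes tested. In bulk RNA, fewer cells of a type and less RNA per cell cannot be told apart.

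**Figure D1:**
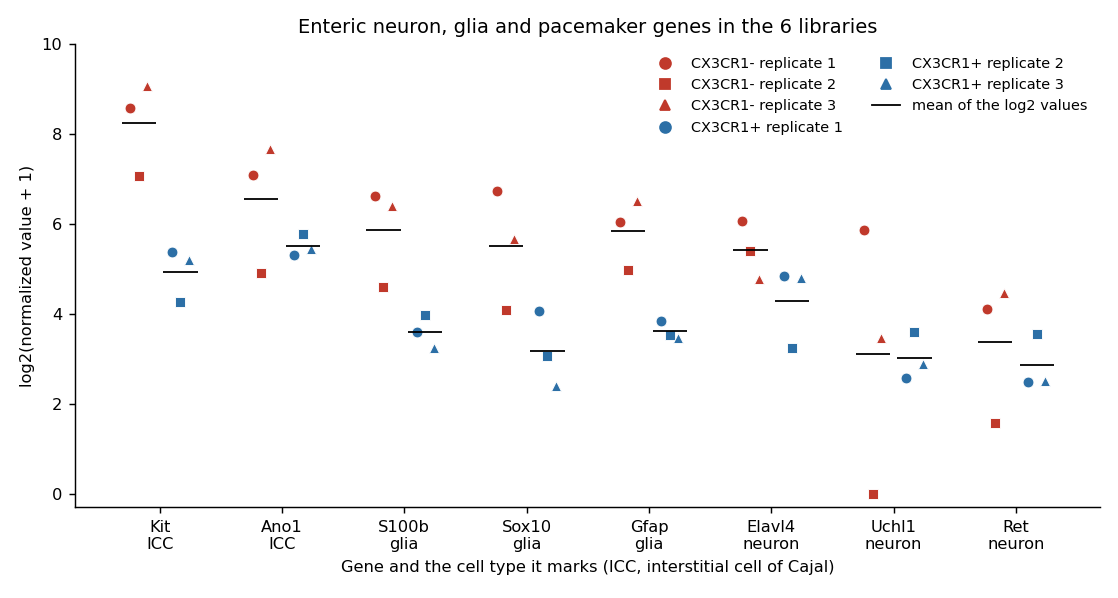
Normalized values of the 8 genes in each of the 6 libraries, on a log2(value + 1) axis. Points are libraries, with red for CX3CR1- and blue for CX3CR1+, and the black lines mark the mean of the 3 log2 values. The red squares of CX3CR1- replicate 2 lie lowest in their group for every gene but Elavl4, and the red and blue points do not overlap for Kit, S100b, Sox10 and Gfap.

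Kit had the largest difference of the 7 tested genes. It encodes the receptor for stem cell factor and lies on chr5:75574916-75656722 (+ strand, GRCm38). Its normalized value was 382, 133 and 532 in CX3CR1- replicates 1 to 3 and 40.3, 18.1 and 35.7 in CX3CR1+ replicates 1 to 3. The lowest CX3CR1- library was thus well above the highest CX3CR1+ library, and the CX3CR1- libraries themselves were spread widely. The means were 349 ± 201 (SD, n = 3) and 31.4 ± 11.7 (n = 3), an 11.1-fold ratio. The log2 fold change was 3.30 (SE 0.50, 95% interval 2.18 to 4.41, limma adjusted p = 9.27e-04), and it was 3.88 without CX3CR1- replicate 2. The exact two-sided permutation test gave p = 0.1, the smallest that 3 libraries against 3 allow.

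Ano1, the other ICC gene, was not called. It lies on chr7:144588549-144751974 (- strand) and read 134, 29.0 and 202 in CX3CR1- and 38.8, 53.4 and 42.2 in CX3CR1+. CX3CR1- replicates 1 and 3 lay above all CX3CR1+ libraries, whereas replicate 2 lay below all of them. The log2 fold change was 1.05 (SE 0.60, 95% interval -0.29 to 2.39, adjusted p = 0.248), and the exact permutation test gave p = 0.4. Without CX3CR1- replicate 2 it was 1.87 with an adjusted p of 0.00325, so this library decided the call. In CX3CR1+ cells Ano1 was the most even of the 8 genes after Gfap, with an SD of 0.23 on the log2 scale.

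The 3 glial genes were each called higher in CX3CR1- cells, with log2 fold changes between 2.22 and 2.32. S100b, a calcium-binding protein abundant in glia, lies on chr10:76253853-76261159 (+ strand). Its values were 97.1, 23.2 and 82.8 in CX3CR1- and 11.1, 14.8 and 8.50 in CX3CR1+. CX3CR1- replicate 2 was the library nearest to the other group, and the groups did not overlap. S100b differed by a log2 fold change of 2.26 (SE 0.56, 95% interval 1.01 to 3.52, adjusted p = 0.0150), and 2.89 without that library. The call was lost without CX3CR1- replicate 1 (1.89, adjusted p = 0.0616), CX3CR1- replicate 3 (1.9998, adjusted p = 0.0588) or CX3CR1+ replicate 3 (2.08, adjusted p = 0.0583).

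Sox10, the neural crest transcription factor, is on chr15:79154908-79165240 (- strand). It read 105, 16.1 and 49.9 in CX3CR1- and 15.7, 7.38 and 4.25 in CX3CR1+. The groups touched, with CX3CR1- replicate 2 just above CX3CR1+ replicate 1, and the last value is that of 3 reads in its library. For Sox10 the log2 fold change was 2.32 (SE 0.71, 95% interval 0.75 to 3.90, adjusted p = 0.0371). It was 3.03 without CX3CR1- replicate 2. This was the least stable of the 4 calls over the alternatives tried, being lost under quantile normalization (1.88, adjusted p = 0.0814), without a trend in the variance (adjusted p = 0.0733) and in 4 of the 6 fits that left out 1 library.

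Gfap, the intermediate filament of glia and astrocytes, is on chr11:102887336-102900912 (- strand). Its values were 64.6, 30.3 and 90.6 in CX3CR1- and 13.4, 10.6 and 10.1 in CX3CR1+. The groups were clearly apart, and the CX3CR1+ libraries were nearly equal. Gfap had a log2 fold change of 2.22 (SE 0.48, 95% interval 1.16 to 3.29, adjusted p = 0.00692), and 2.66 without CX3CR1- replicate 2. Kit and Gfap were the genes whose calls held in all 6 fits with 1 library left out, with adjusted p-values of at most 0.00734 and 0.0293.

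The 3 neuronal genes were not called. Elavl4 encodes the neuronal RNA-binding protein HuD, whose family is stained to count enteric neurons, and lies on chr4:110203722-110351909 (- strand). It read 66.0, 41.1 and 26.2 in CX3CR1- and 27.7, 8.41 and 26.9 in CX3CR1+. The highest CX3CR1+ libraries lay above the lowest CX3CR1- library, here replicate 3. For Elavl4 the log2 fold change was 1.12 (SE 0.55, 95% interval -0.10 to 2.33, adjusted p = 0.175), and 1.12 also without CX3CR1- replicate 2. Over all fits that left out 1 library it ranged from 0.59, without CX3CR1+ replicate 2, to 1.44, without CX3CR1- replicate 3. Elavl4 was called in none of them.

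Uchl1 encodes the ubiquitin hydrolase PGP9.5, a common stain for nerve cell bodies and fibres, on chr5:66676091-66687234 (+ strand). It read 56.9, 0 and 10.01 in CX3CR1- and 5.002, 11.2 and 6.44 in CX3CR1+. The CX3CR1- libraries enclosed all CX3CR1+ libraries, and the 0 of replicate 2 allows a value of up to 5.36, that of 3 reads. Its log2 fold change was 0.08 (SE 1.26, 95% interval -2.73 to 2.88, adjusted p = 0.974), so the interval spans large differences in both directions. Without CX3CR1- replicate 2 it was 1.63 (adjusted p = 0.162). An antisense gene, Uchl1os, overlaps 295 exon bases of Uchl1 and shares 14.8% of its 31-base words. The library kit does not mark strand, so reads of the pair cannot be told apart there. The symbol Uchl1os was not among the genes listed with normalized values.

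Ret, the receptor of the GDNF family of growth factors, on chr6:118151745-118197718 (- strand), was the lowest of the 8 genes, per kilobase of exon as well. It read 16.3, 1.98 and 20.9 in CX3CR1- and 4.64, 10.7 and 4.71 in CX3CR1+. CX3CR1- replicates 1 and 3 lay above the CX3CR1+ libraries and replicate 2 below them, at under 3 reads. A fit with no filter on low values gave a log2 fold change of 0.53 (SE 0.81, adjusted p = 0.712).

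**Figure D2:**
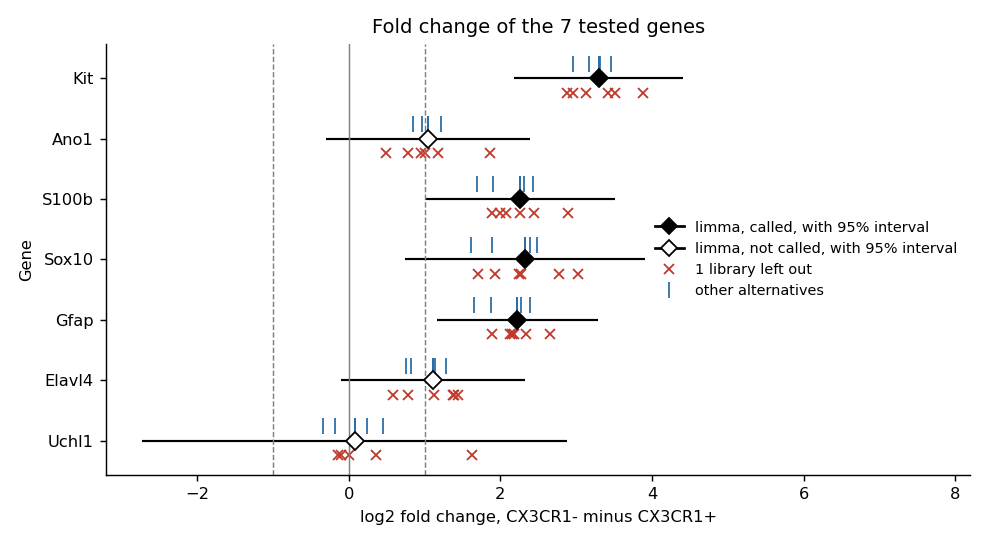
log2 fold change of the 7 tested genes, CX3CR1- minus CX3CR1+, with 95% intervals from limma. Filled diamonds are called genes, red crosses are fits without 1 library, blue ticks are other settings, and dashed lines mark 1 and -1. Kit lies to the right of the other genes, and Uchl1 has the widest interval.

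Per kilobase of exon, where genes can be compared, the levels in CX3CR1- cells ran from S100b, with 45.6 ± 26.4 (SD, n = 3), and Kit, with 39.2 ± 22.6, down to Elavl4, with 8.25 ± 3.73, and Ret, with 1.93 ± 1.46. Ano1, Sox10, Gfap and Uchl1 lay between 13.7 and 19.5. Of neighbours in this order, Elavl4 and Ret were the pair whose libraries did not overlap. In CX3CR1+ cells S100b was again highest, with 7.72 ± 2.12 (n = 3), followed by Ano1 with 7.17 ± 1.22, while Kit, with 3.52 ± 1.32, lay between Elavl4 and Sox10, and Ret was last with 0.99 ± 0.51. There the ranges of all neighbours overlapped except those of Gfap and Ret. The ICC and glial genes were thus measurable in the CX3CR1+ libraries too, with the exception of Sox10 in replicate 3, which was at 3 reads.

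The genes were uneven among the CX3CR1- libraries. The median SD of log2(value + 1) over the 8 genes was 1.22 in CX3CR1- and 0.56 in CX3CR1+, beside 0.57 and 0.35 over the 13372 tested genes with means of 10 to 200. The SD was larger in CX3CR1- for 7 of the 8 genes, Elavl4 being the exception, and for 70.0% of all genes tested. CX3CR1- replicate 2 was the lowest of its group for the 7 genes other than Elavl4, and for 35.2% of all genes tested. Against this library, replicate 1 was 2.86-fold higher for Kit, 4.63-fold for Ano1, 4.17-fold for S100b, 6.55-fold for Sox10 and 2.13-fold for Gfap, and replicate 3 was 3.99-, 6.99-, 3.56-, 3.10- and 2.99-fold higher. Kit, Ano1 and Gfap were therefore highest in replicate 3, and S100b and Sox10 in replicate 1. The summed value of the 8 genes was 923, 275 and 1015 in CX3CR1- and 157, 135 and 139 in CX3CR1+.

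The called genes Kit, S100b and Gfap are shown with the promoter windows that RefSeq gives them (GRCm38.p6, 250 bases before to 50 after the start, 5′ to 3′ on the gene's strand). The windows lie at chr5:75574737-75575036 for Kit, chr10:76253586-76253885 for S100b and chr11:102897151-102897450 for Gfap. Capitals mark the GC box GGGCGG and the E-box CANNTG, searched on both strands.
Kit: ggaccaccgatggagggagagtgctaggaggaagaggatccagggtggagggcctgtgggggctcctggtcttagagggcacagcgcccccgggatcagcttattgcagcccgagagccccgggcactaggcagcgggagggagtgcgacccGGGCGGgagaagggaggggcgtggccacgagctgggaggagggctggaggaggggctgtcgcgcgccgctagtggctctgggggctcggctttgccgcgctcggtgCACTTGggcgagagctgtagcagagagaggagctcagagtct
S100b: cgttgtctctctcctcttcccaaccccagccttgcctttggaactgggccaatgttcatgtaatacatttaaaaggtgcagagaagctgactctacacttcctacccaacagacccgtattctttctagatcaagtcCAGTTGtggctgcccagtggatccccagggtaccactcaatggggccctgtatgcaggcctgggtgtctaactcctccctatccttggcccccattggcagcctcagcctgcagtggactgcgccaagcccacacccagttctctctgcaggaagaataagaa
Gfap: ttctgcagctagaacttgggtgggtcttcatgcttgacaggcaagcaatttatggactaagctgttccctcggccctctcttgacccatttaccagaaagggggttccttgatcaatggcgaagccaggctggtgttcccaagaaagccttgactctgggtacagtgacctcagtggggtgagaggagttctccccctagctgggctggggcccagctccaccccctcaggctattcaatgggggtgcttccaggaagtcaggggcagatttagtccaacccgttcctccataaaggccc
Kit held 1 GC box and 1 E-box in 69.0% G and C, S100b 1 E-box, and Gfap neither. Of all 32851 promoter windows, 35.7% hold the GC box and 72.3% the E-box. Among the 10 windows of the 6 genes listed, those of Kit and the window of Ano1, with 4, held GC boxes. The SOX core ACAAAG was in none of the 10 and in 18.7% of all windows, and the TATA box TATAAA in none and in 13.6%. These matches describe letters and not binding. Sox10 and Ret were not shown.

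Other known genes of the same cells were counted as lists, and the most abundant gene of a list is the one with the highest mean normalized value, not set per length. Of 7 other genes of ICC and of the PDGFRα+ cells that share their networks, 6 were tested and 5 were called higher in CX3CR1- (4 under quantile normalization). The figures name this mixed list other pacemaker genes. Kcnn3, the small-conductance potassium channel of PDGFRα+ cells, was the most abundant, with 2336, 770 and 3767 against 73.8, 58.5 and 76.8 (log2 fold change 4.75). Pdgfra, the receptor that names these cells and that fibroblasts also express, had 1387, 450 and 2356 against 46.5, 20.1 and 16.8 (5.45). Both were lowest of the CX3CR1- libraries in replicate 2, as Kit was. P2ry1, their purine receptor, differed by 2.53 and was even within CX3CR1-, with 145, 126 and 145. The calcium channel gene Cacna1h differed by 1.69. Etv1, an ICC transcription factor, read 350, 188 and 401 against 612, 379 and 433 and was not called (-0.64, adjusted p = 0.164).

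Of 10 other glial genes, 9 were in the table, 6 were tested and 4 were called higher, with none lower. Entpd2, an ectonucleotidase of glial membranes, was 3.15 higher on the log2 scale (adjusted p = 0.00421). The cadherin gene Cdh19 had 3.02, the neuregulin receptor gene Erbb3 had 2.74 and the fatty acid binding protein gene Fabp7 had 2.04. Erbb3 was the most abundant, with 173, 102 and 58.8 against 9.71, 21.3 and 14.2. Erbb3 and Entpd2, with 65.3, 41.8 and 31.4 in CX3CR1-, were lowest of these libraries in replicate 3, unlike S100b, Sox10 and Gfap. Of the 9 genes in the table, 6 were lowest in replicate 2.

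Of 23 other neuronal genes, 22 were in the table, 15 were tested and 2 were called higher (1 under quantile normalization), with none lower. That is near the 12.2% of all genes tested that were called higher. The median log2 fold change of the 15 was 0.99. The called genes were Map2, a microtubule protein of dendrites, at 2.37, and Hand2, a transcription factor that mesenchymal cells of the gut also use, at 1.39. Nos1, the nitric oxide synthase of inhibitory motor neurons, was the most abundant, with 193, 51.4 and 169 against 66.1, 120 and 98.6 (0.36, adjusted p = 0.632). The pattern of Nos1 was like that of Ano1, with 1 CX3CR1- library below all of CX3CR1+. Tubb3, the neuronal tubulin, read at most 13.4 in any library and was not tested. In 16 of the 22 genes CX3CR1- replicate 2 was the lowest of its group, but Syt1, a synaptic vesicle gene, was highest there, with 89.3 against 13.4 and 9.55.

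Of 13 genes of KIT, RET and EDNRB signalling, 9 were in the table, 6 were tested and 3 receptor genes were called higher, Kit among them. Gfra2, the co-receptor through which neurturin acts on RET, read 762, 553 and 709 against 37.2, 45.9 and 22.5 (log2 fold change 4.27, adjusted p = 8.99e-06). Ednrb, the endothelin receptor of neural crest cells, was 3.15 higher. Gfra1, the GDNF co-receptor, read 116, 23.1 and 114 against 38.0, 17.7 and 6.14 and was not called (1.99, adjusted p = 0.0783). Kitl, the ligand of KIT, was the most abundant of this list, at 327, 272 and 350 against 575, 519 and 367 (-0.60, adjusted p = 0.0805). Gfra2 was high in all 3 CX3CR1- libraries, replicate 2 included, where Ret was under the value of 3 reads. Gdnf, Nrtn, Artn and Pspn were not analysed here.

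**Figure D3:**
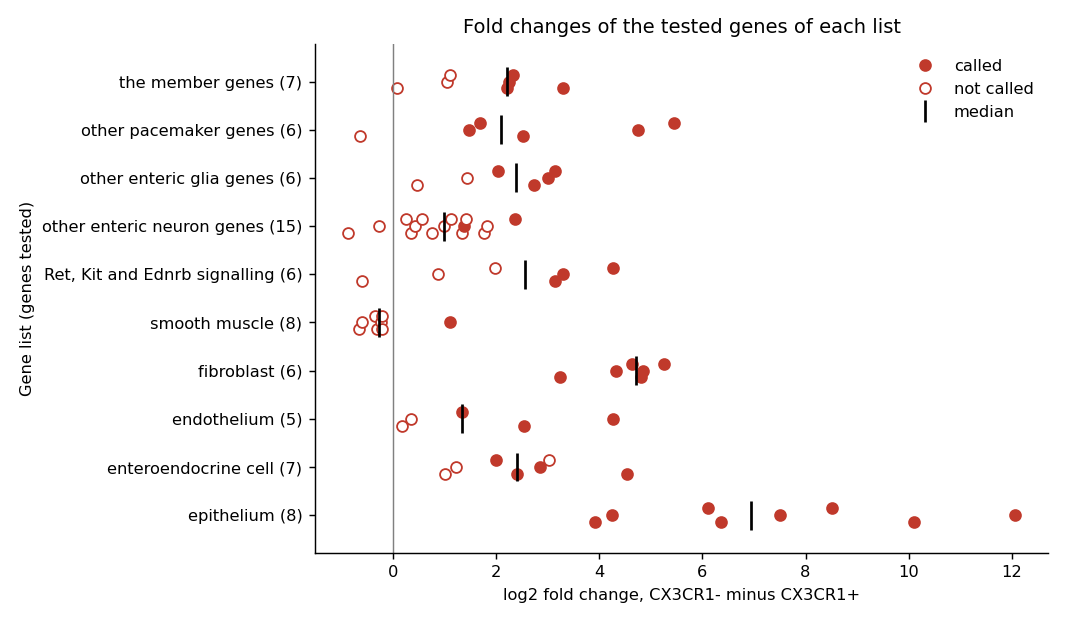
log2 fold change of the tested genes of each list, CX3CR1- minus CX3CR1+. Filled points are called genes, open points are not called, and black bars are medians. The median is 2.22 for the 7 tested genes described here, 0.99 for the other neuronal genes, -0.27 for smooth muscle and 6.94 for epithelium.

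Markers of other cells were compared in the same way, and the lists differed in how far they followed these genes. All 6 fibroblast genes were called higher in CX3CR1-, led by Lum (5.27), Dcn (4.85), Col3a1 (4.81) and Col1a2 (4.64), with Dcn the most abundant, and their summed value was 5875, 3699 and 9864 against 273, 227 and 168. All 8 tested epithelial genes were called higher, led by Fabp2, the most abundant, Krt20, Krt8 and Epcam, and the 10 genes of the list summed to 26932, 25135 and 15827 against 62.4, 35.9 and 34.1. The epithelial sum was thus lowest in replicate 3, where Kit was highest. Smooth muscle genes summed to 4896, 1731 and 5056 against 3492, 4884 and 4169, with Mylk the most abundant. Smtn was the 1 of 8 called (1.11), with none of 8 called under quantile normalization. This count is near the 12.2% of all genes tested that were called higher. All 8 smooth muscle genes and all 6 fibroblast genes were lowest of the CX3CR1- libraries in replicate 2, as were 7 of the 8 genes described here. Their part in the differences of Kit and the glial genes was not tested.

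Kit is also made by mast cells and by some innate lymphoid cells, and several neuronal genes by enteroendocrine cells. The part of these cells in the differences above was not tested. Of 11 mast cell genes 3 were in the table, and 8 were not analysed here. Hdc, the histidine decarboxylase and the most abundant of the 3, read 9.21, 142 and 24.3 in CX3CR1- and 5.84, 10.3 and 12.4 in CX3CR1+. It was highest in replicate 2, where Kit was lowest of its group. Ms4a2, a chain of the IgE receptor, read at most 6.81 in any library. Gata2, a transcription factor of mast cells and other blood cells, was not tested and read 29.6, 21.9 and 5.36 in CX3CR1- and 1.32, 0 and 0 in CX3CR1+, so its groups did not overlap. Of the innate lymphoid genes Gata3 and Il7r were called higher (2.61 and 1.47), and the list had 1 call under quantile normalization. Both genes were also highest of all libraries in CX3CR1- replicate 2, and the list as a whole, with Il1rl1 the most abundant, summed to 596, 695 and 518 against 309, 266 and 312. Of 7 tested enteroendocrine genes 4 were called higher (3 under quantile normalization), Chgb (4.54), Tph1 (2.85), Scg2 (2.41) and Chga (2.002), and the 8 genes measured summed to 603, 589 and 932 against 117, 99.5 and 70.7. Of the 8 genes measured 4 were lowest of the CX3CR1- libraries in replicate 2, namely Chga, Scg2, Tph1 and Scg3, whereas Chgb, the most abundant, read 150, 220 and 465. Of 5 endothelial genes 3 were called higher, Cdh5 (4.26), Kdr (2.55) and Lyve1 (1.35), with Pecam1 the most abundant and sums of 1525, 1093 and 1419 against 614, 791 and 724. Of 4 tested mesothelial genes 2 were called higher, Wt1 and Krt19, of which Krt19 is also in the epithelial list. Krt19 was the most abundant, with 179, 153 and 96.7 in sums over the 5 listed of 424, 187 and 170 against 43.9, 19.6 and 22.2 in CX3CR1+. The mesothelial markers Msln and Upk3b were at 0 in CX3CR1- replicate 2, and Msln was not tested and Upk3b not called.

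**Figure D4:**
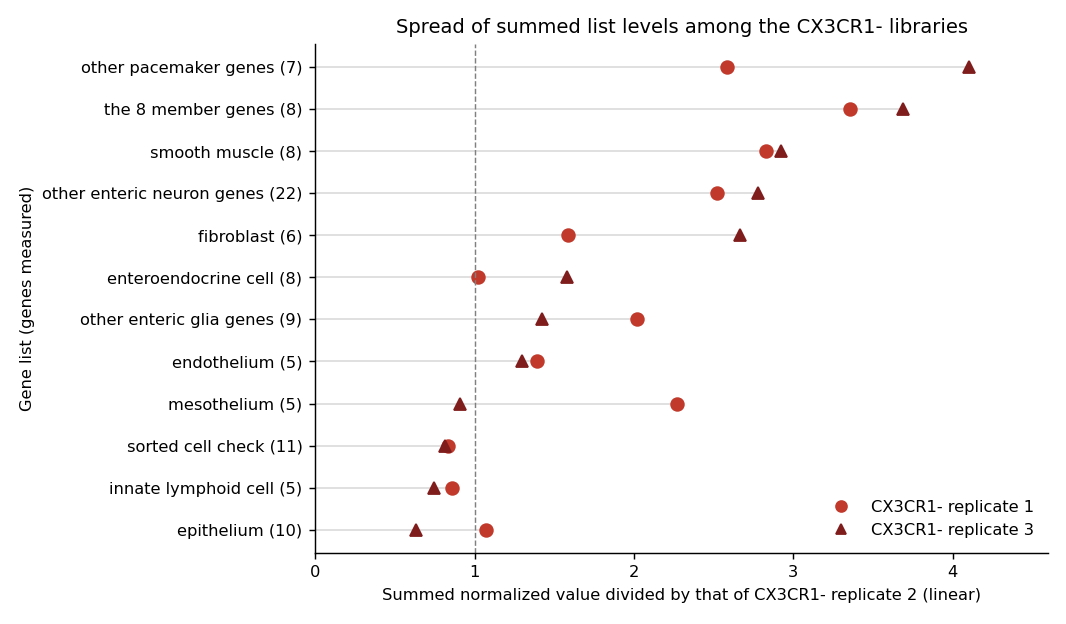
Summed normalized value of each gene list in CX3CR1- replicates 1 (circles) and 3 (triangles), divided by that of CX3CR1- replicate 2, on a linear axis that starts at 0. The dashed line marks equal sums. The 8 genes described here lie at 3.35 and 3.69. The list named other pacemaker genes lies at 2.58 and 4.10, and its largest values are those of Kcnn3 and Pdgfra of PDGFRα+ cells. Smooth muscle lies at 2.83 and 2.92 and the other neuronal genes at 2.52 and 2.78. The other glial genes lie lower, at 2.02 and 1.42, and epithelium at 1.07 and 0.63.

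The genes with the most similar profiles over the 6 libraries (Pearson r of log2(value + 1), a description with no test, since the groups differ and each gene was compared with all others) were also listed. Kit was most like Ndufb3 (r = 0.998), Sytl2 and Igf2. Their log2 fold changes were 0.49, 2.42 and 2.07, beside 3.30 for Kit, since r does not measure the size of a difference. Among the glial genes, S100b was most like Kctd9, Tm4sf1 and Creb3l1, Sox10 most like Frzb, Klf9 and Skp1a, and Gfap most like C1qtnf3, Ncald and Plekha5. Ano1 was closest to Selenom, Nes and Hdx. Elavl4 was closest to Gm37566, Vopp1 and Gm44937, and Uchl1 to Gm37829, Poc1a and Prpf6. Among the 7 tested genes themselves Kit and Gfap were the most alike (r = 0.984), and Elavl4 and Uchl1 the least (r = 0.092).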

How the data were processed

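MHCII hi cells of the small bowel ME were sorted into CX3CR1- and CX3CR1+ cells, with 3 RNA-seq libraries per group. The authors pseudoaligned single reads to the mouse transcriptome (mm10, GENCODE M16) with Kallisto, summed transcripts to genes with tximport and normalized the result in DESeq2. What was deposited is therefore a normalized expression signal per gene, not counts. About 43.8% to 45.9% of them per library are whole multiples, within 0.02 reads, of the smallest step, so reads could not be recovered, depths are approximate, and levels under 3 reads are read as background. The values of 3 reads cover counting error only, whereas the 95% intervals come from the spread between libraries. Precision at low values is set by depth, 5350000 to 17600000 reads with mitochondrial reads included.

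Values were analysed as log2(value + 1) with limma 3.58.1 (lmFit, eBayes with trend, two-sided) in R 4.3.3, for genes with a mean of at least 10, since the count test of the study does not apply to such values. Fold changes on this scale understate those of low genes. The fit was tested on simulated data. Exact permutation tests used scipy 1.17.1. Gene positions and exon lengths come from GENCODE M21 on GRCm38. The alternatives were other pseudocounts, filters and scalings, no trend in the variance and leaving out each library. Named genes were all 8 genes, in each list up to 4 called higher and 2 called lower with the largest fold change, its most abundant gene, and the 3 most similar profiles. Etv1, Tubb3, Syt1, Gfra1, Ms4a2, Gata2, Scg3, Msln, Upk3b, Ptprc, H2-Ab1, H2-Aa and Csf1r were named after their values were seen, and 1 glial gene is not reported here. The genes and lists were chosen with earlier results of these data known.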

Additional observations from a re-analysis of the deposited data

How the results depend on the processing

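Kit and Gfap kept their direction and their call under every alternative in which they were tested. Over all genes tested the median log2 fold change became -0.15 under quantile normalization and 0.16 with equal totals without mitochondrial genes. Quantile normalization left 3 of the 4 called genes, with Sox10 at 1.88. The counts of calls in other lists became 1 for neuronal, 1 for innate lymphoid and 0 for smooth muscle genes. They became 4 for the genes of ICC and PDGFRα+ cells, 3 for enteroendocrine genes, and 9 lower, from 7, for genes of the sorted cells. Without a trend in the variance Sox10, at 2.32, was not called (adjusted p = 0.0733). A minimum mean of 50 gave 2413 called genes, 2390 of them among the 3628, and left 1 of the 8 genes called, Kit, since most of them were then not tested. Uchl1 turned to -0.19 with a pseudocount of 0.5 and to -0.34 under quantile normalization. Leaving out each library gave 2771 to 3869 called genes and 2 to 5 called among the 8. On the log2 scale the difference then ranged from 1.71 to 3.03 for Sox10, 1.89 to 2.89 for S100b, 0.49 to 1.87 for Ano1 and -0.15 to 1.63 for Uchl1, which was -0.10 without CX3CR1- replicate 3 and fell under the minimum mean, and so was not tested, without CX3CR1- replicate 1. A group left with 2 libraries is assumed to vary like the other group. The replicate numbers follow the order of deposit and coincide with pairs of adjacent library numbers. The sources used here do not say that these libraries were paired. A block for these pairs, chosen after seeing the data, gave 3610 called genes and the 4 called here. Depth limits the values at or under 3 reads, those of Uchl1 and Ret in CX3CR1- replicate 2 and of Sox10 in CX3CR1+ replicate 3.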
